A study of Mus musculus with 179 samples.

Results

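Prox1, C1ql2, Dsp, Calb1 and Tdo2, 5 genes used as markers of the granule cells of the dentate gyrus, were followed through RNA sequencing of adult mouse brain, chiefly in the male hippocampus (HIP) and, for contrast, in the male prefrontal cortex (PFC). The 5 genes were chosen by name, with earlier results of these data known. All 5 were found by symbol and Ensembl identifier among the 32421 genes of the table that holds HIP and PFC. The study asked how early life stress (ELS) alters the adult brain and its answer to a second stress in adulthood. C57Bl6/j males were reared under standard conditions or met ELS from postnatal day 10 to postnatal day 20, and as adults were left as controls or met chronic social defeat. This gave 4 groups of 6 libraries in each of the 2 regions: standard control, ELS control, standard defeat and ELS defeat. Each HIP or PFC library came from a tissue punch of 1 male, taken 24 h after behavioural testing. The labels do not say which HIP and PFC punches share a mouse.

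Granule cells are the principal neurons of the dentate gyrus, the entry gate of the hippocampus: they receive input from the entorhinal cortex and send mossy fibres to CA3. They are made from neural progenitors before and after birth, and in the mouse new ones are added in adulthood. Prox1, a homeobox transcription factor, sets and holds granule cell identity. C1ql2 is a secreted C1q-like protein of mossy fibre synapses, and Calb1 (calbindin) a calcium-buffering protein that mature granule cells make in large amounts but that CA1 neurons, interneurons and many neurons outside the hippocampus make too. Dsp (desmoplakin) links desmosomes to intermediate filaments in epithelia, and Tdo2 (tryptophan 2,3-dioxygenase) opens the indole ring of tryptophan. Both serve as granule cell markers in rodent hippocampus. In tissue punches, fewer cells of a type and less RNA per cell cannot be told apart.

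In GRCm38.p6 (mm10), Prox1 (ENSMUSG00000010175) lies at chr1:190118035-190170827, C1ql2 (ENSMUSG00000036907) at chr1:120340582-120343174, Dsp (ENSMUSG00000054889) at chr13:38151294-38198577, Calb1 (ENSMUSG00000028222) at chr4:15881264-15906709 and Tdo2 (ENSMUSG00000028011) at chr3:81958412-81975728. Over all RNA libraries of the series, the submitters' processing notes name mm10 and also mm9. The kit did not mark strand, and Prox1 overlaps the antisense gene Prox1os by 532 bases, so reads from that stretch cannot be told apart. Any part of promoter sequence in the levels of the markers was not tested. As a description, the 200 bases before the annotated start of Prox1, C1ql2, Dsp and Tdo2 are shown, and Calb1 is named only. They come from RefSeq's annotation of GRCm38.p6, 5′ to 3′ on the gene's own strand. Capitals mark matches to the E-box CANNTG, the core motif of the NeuroD and Neurog families of factors, searched on both strands (the motif reads as itself on the other strand). For Prox1 the first of 2 annotated starts is shown, and the window is chr1:190170828-190171027 on the minus strand. The other windows are chr1:120340382-120340581 (plus), chr13:38151094-38151293 (plus) and chr3:81975729-81975928 (minus).
Prox1: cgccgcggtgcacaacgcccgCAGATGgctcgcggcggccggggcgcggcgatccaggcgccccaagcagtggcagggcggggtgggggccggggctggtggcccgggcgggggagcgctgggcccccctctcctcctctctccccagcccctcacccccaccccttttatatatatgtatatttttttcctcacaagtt
C1ql2: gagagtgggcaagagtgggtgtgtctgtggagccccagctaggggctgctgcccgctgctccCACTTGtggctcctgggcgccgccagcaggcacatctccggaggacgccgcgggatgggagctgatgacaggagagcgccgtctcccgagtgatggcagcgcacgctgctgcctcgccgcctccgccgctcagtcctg
Dsp: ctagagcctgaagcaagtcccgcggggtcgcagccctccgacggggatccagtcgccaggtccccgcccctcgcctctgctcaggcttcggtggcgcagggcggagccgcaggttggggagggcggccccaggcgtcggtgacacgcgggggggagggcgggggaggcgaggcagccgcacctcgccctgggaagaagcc
Tdo2: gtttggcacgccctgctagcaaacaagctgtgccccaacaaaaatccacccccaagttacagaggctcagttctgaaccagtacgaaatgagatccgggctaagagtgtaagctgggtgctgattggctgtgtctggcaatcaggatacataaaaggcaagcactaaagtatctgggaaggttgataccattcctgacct
The Prox1 and C1ql2 windows each held 1 E-box and the Dsp and Tdo2 windows 0, where 58.2% of 32851 promoter windows of that length held at least 1. The windows also differed in base composition, with 70.0% G and C in Prox1 and in C1ql2, 75.5% in Dsp and 49.0% in Tdo2 against a median of 53.0%. The GC box GGGCGG (either strand) stood in 31.0% of all windows. It had 4 matches before Dsp, 2 before Prox1 and 0 before C1ql2 and Tdo2. The window before the other annotated start of Prox1, not shown, held 0 E-boxes and 1 GC box, with 59.0% G and C.

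Levels are given in normalised reads, that is, read counts per gene divided by 1 factor per library. Recovered depth, to the nearest 100000 reads, ran from 22400000 to 42700000 in HIP and from 27900000 to 36000000 in male PFC. Among the HIP libraries 6 stood apart in Ttr (transthyretin, abundant in choroid plexus): it ran from 17416 to 250318 normalised reads in standard control replicates 1, 4 and 6, ELS control replicate 4 and ELS defeat replicates 2 and 5, and from 28.2 to 567 in the other 18. The standard defeat group held none of the 6. These libraries are part of every group value below unless the 18 others are named, and the comparisons of the markers are given with and without them. One male PFC library, replicate 4 of standard defeat, stood apart by Slc6a3, the dopamine transporter of midbrain neurons, at 3853 against at most 121 in the other 23, and held 1284 of Xist. As a check of the region labels, 7 of 7 cortical layer genes tested were lower in HIP than in PFC in unstressed males (limma, adjusted p under 0.05), where 23.7% of 14000 genes were lower, and 4 of 7 without the libraries rich in Ttr. For that second count the share of all genes is not given.

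Prox1 was among the most variable of the genes measured in HIP. Its level in the 6 standard controls ran from 515 to 5193 normalised reads with a median of 2330.2, and it fell into 2 sets there, 515, 608 and 668 in replicates 1, 4 and 6 and 5193, 4474 and 3993 in replicates 2, 3 and 5. ELS controls ran from 880.2 to 4626 (median 3420.2), and replicate 4 alone lay under 2801. Standard defeat libraries ran from 2344 to 5812 (median 5012), with none in the low range. ELS defeat libraries ran from 586 to 5929 (median 3654), with replicates 2 and 5 at 1179 and 586. The low and high sets did not overlap, and all 4 groups overlapped one another.

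C1ql2, the mossy fibre protein, was low in the same 6 libraries, although the order within the low and high sets differed from that of Prox1. Standard controls held 385, 202 and 349 normalised reads in replicates 1, 4 and 6 and 4447, 3112 and 2971 in replicates 2, 3 and 5 (median 1678). ELS controls ran from 566 to 3747 (median 2573) and standard defeat libraries from 1649 to 4912 (median 3463). ELS defeat libraries ran from 333 to 4094 (median 2808). The lowest of each of the other 3 groups was under the lowest standard defeat library, and the groups overlapped.

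Tdo2, at a lower level, split the same way. Standard controls held 27.4, 19.3 and 44.0 normalised reads in replicates 1, 4 and 6 against 265, 230.4 and 237 in replicates 2, 3 and 5 (median 137). ELS controls ran from 40.5 to 385 (median 165), standard defeat libraries from 109.7 to 356 (median 278) and ELS defeat libraries from 23.2 to 266 (median 194). The highest Tdo2 of all 24 libraries was in ELS control replicate 6, which also held the highest Dsp and the highest Calb1.

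Dsp varied over a similar span with a less clean split. Its range was 281 to 1018 normalised reads in standard controls (median 522), 152 to 1503 in ELS controls (median 586), 491 to 1152 in standard defeat (median 952) and 154 to 1046 in ELS defeat libraries (median 499). ELS control replicate 3 and ELS defeat replicate 4, both with little Ttr, held 263 and 383, inside the range of the 6 libraries rich in Ttr. Calb1 varied least. It ran from 3340 to 5287 normalised reads in standard controls (median 4761), 3329 to 6321 in ELS controls (median 4582), 3370.0 to 6142 in standard defeat (median 4902) and 2667 to 5733 in ELS defeat libraries (median 4503).

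**Figure D1:**
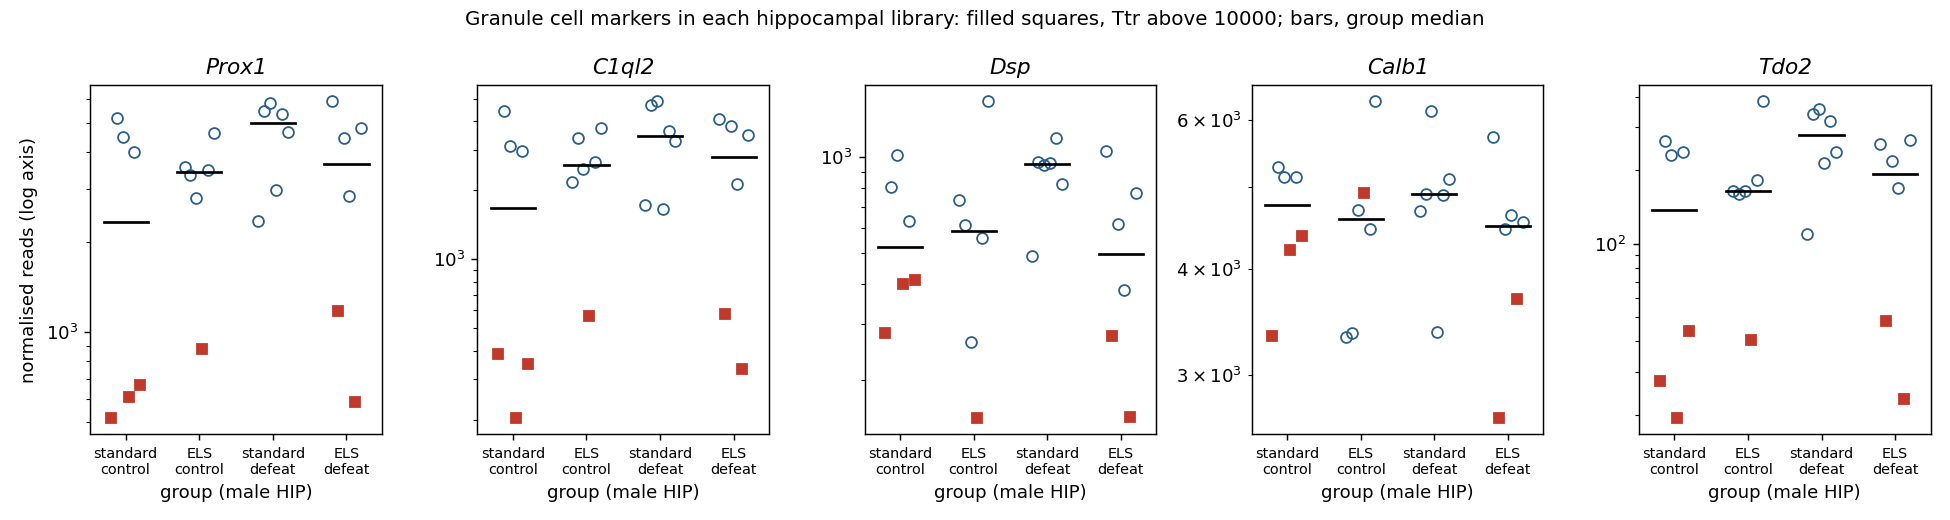
Normalised reads (log axis) of each of the 5 marker genes in every male HIP library by group; filled squares are the 6 libraries with Ttr above 10000 and bars are group medians. For Prox1, C1ql2 and Tdo2 all 6 squares lie under all 18 circles, while for Dsp and Calb1 the 2 kinds of point overlap.

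Set beside each other, the 18 libraries with little Ttr and the 6 rich in it did not overlap in 3 of the 5 markers, where 1.09% of 14000 genes were higher in all 18 than in all 6 and 1.68% were lower. Prox1 ran from 2344 to 5929 normalised reads (median 4464) in the 18 and from 515 to 1179 (median 638) in the 6. For C1ql2 the medians were 3345 and 367, and for Tdo2 234 and 34.0. The ratio of these medians was 7.001 for Prox1, 9.11 for C1ql2 and 6.87 for Tdo2. It was 2.83 for Dsp (789 and 278) and 1.21 for Calb1 (4796 and 3948), both with overlapping ranges. Of the 6 libraries rich in Ttr, 6 were the 6 lowest of all 24 for Prox1, C1ql2 and Tdo2, 4 were among the 6 lowest for Dsp, and 3 for Calb1. These 2 sets were made from the data and are not the study's groups, so no test was run between them.

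Other genes typical of granule cells moved with the markers in part. Of 14 such genes 6 were higher in all 18 libraries than in all 6: Lct (lactase; medians 419 and 41.9 normalised reads), Trpc6 (a cation channel; 813 and 212), Npnt (nephronectin, a matrix protein; 1030 and 288), Fam163b (4913 and 1665), Sema5a (a semaphorin; 4562 and 1636) and Stxbp6 (3648 and 1678). The other 8 overlapped, among them Pdzd2 (1770 and 1766), and the median over the 14 was a log2 ratio of 0.99 against -0.0049 over all genes tested. Genes of CA2 and CA1 neurons did not follow: medians were higher in the 18 libraries for 4 of 8 CA1 genes and 0 of 4 CA2 genes, with Spink8 (CA1) and Map3k15 (CA2) lower in all 18 than in all 6, at medians of 120 and 598, and of 35.2 and 136. CA3 genes were higher by median in 1 of 4, interneuron genes in 4 of 10, thalamus and habenula genes in 4 of 7, genes of young neurons in 6 of 10, astrocyte genes in 6 of 7, cortical layer genes in 6 of 7 and myelin genes in 0 of 10.

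The choroid plexus list was the converse, with 14 of 14 genes lower in all 18 libraries than in all 6. Ttr, by which the sets were made, is in this list and in its summed level, so its own split was fixed in advance. Its summed level ran from 2687 to 447280 normalised reads in standard controls, 2621 to 34463 in ELS controls, 2618 to 4472 in standard defeat and 2363 to 280030 in ELS defeat libraries. Folr1, Kcnj13 and Otx2 were at 0 in at least 1 of the 18. The part of choroid plexus tissue, or of where the punch was taken, in the levels of the granule cell markers was not tested.

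Against PFC, all 5 markers were higher in HIP in unstressed males (standard controls of both regions). C1ql2, Dsp and Tdo2 were not among the 14000 genes of highest mean in male PFC alone. They entered the main fit of both regions through their HIP levels, so their passing that filter is not independent of the difference tested. The adjusted p-values here and below are from limma with Benjamini-Hochberg adjustment over 14000 genes, of which 24.7% were higher in HIP at an adjusted p under 0.05. Fold changes are differences of log2(normalised reads + 1) ± SE, and each group had 6 libraries. Dsp differed most, at a log2 fold change of 6.07 ± 0.46 (adjusted p = 3.03e-14, higher in 6 of 6 HIP libraries than the PFC mean), from 3.94 to 11.1 normalised reads in PFC to 281 to 1018 in HIP. C1ql2 followed at 5.94 ± 0.71 (adjusted p = 4.83e-09), from 5.24 to 33.7 in PFC. For these 2 genes the groups did not overlap, as for 12.3% of all genes in that direction.

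The other 3 markers overlapped between the regions. Prox1 was higher by 1.99 ± 0.47 (adjusted p = 0.000442), although HIP standard control replicate 1, at 515, lay under 2 of the 6 PFC controls, which ran from 328 to 568. Tdo2 was higher by 1.44 ± 0.52 (adjusted p = 0.0210), with 4 of 6 HIP libraries above the PFC mean of 30.8. The fit of both regions used 1 variance per gene, so unequal spread was not modelled. The SD of log2 levels within groups was 1.28 in HIP and 0.35 in PFC for Tdo2, and 1.16 and 0.21 for Prox1. Calb1 was higher by 0.36 ± 0.14 (adjusted p = 0.0298), from a PFC mean of 3547 ± 467 to a HIP mean of 4584 ± 755 (SD, n = 6). Without the 6 HIP libraries rich in Ttr, 3 of them standard controls, the log2 fold changes were 3.46 ± 0.21 for Prox1, 7.70 ± 0.65 for C1ql2, 6.65 ± 0.48 for Dsp, 2.96 ± 0.29 for Tdo2 and 0.56 ± 0.14 for Calb1, with adjusted p-values (limma) up to 0.00201. The 3 left out held the lowest levels of the 6 standard controls in every marker, so leaving them out could only raise the difference. These p-values are therefore no further support. The calls of Tdo2 and Calb1 were both lost when HIP standard control replicate 2, 3 or 5 was left out (3 of 5 markers called; adjusted p of 0.0744 to 0.0807 for Tdo2 and 0.0659 to 0.0713 for Calb1, limma). Calb1 was also lost without PFC standard control replicate 3 (0.0766) or 5 (0.0740).

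Over the mean of the 4 groups, 24 libraries a region, all 5 were again higher in HIP, where 36.9% of genes were. Log2 fold changes were 6.39 ± 0.36 for C1ql2, 6.19 ± 0.23 for Dsp, 2.73 ± 0.23 for Prox1, 2.26 ± 0.26 for Tdo2 and 0.33 ± 0.070 for Calb1, with adjusted p-values from 8.37e-26 for Dsp to 5.97e-05 for Calb1 (limma). Without the 6 libraries rich in Ttr they were 7.17 ± 0.29 for C1ql2, 6.56 ± 0.22 for Dsp, 3.37 ± 0.096 for Prox1, 2.96 ± 0.13 for Tdo2 and 0.42 ± 0.065 for Calb1. Those 6 were the lowest HIP libraries for Prox1, C1ql2 and Tdo2, so larger values for these 3 markers were fixed in advance. For Dsp every HIP library was above every PFC library, as for 2.71% of genes. The number of HIP libraries above all 24 PFC libraries was 23 of 24 for Prox1, 22 for C1ql2, 21 for Tdo2 and 10 for Calb1. Every library of the 18 with little Ttr was above all PFC libraries in Prox1, C1ql2, Dsp and Tdo2, but 9 of 18 were in Calb1. Of the 6 rich in Ttr, 1 lay inside the PFC range of Prox1, 2 inside that of C1ql2 and 3 inside that of Tdo2, where PFC ran from 11.7 to 36.4 normalised reads.

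Of the 14 other granule cell genes, 7 were higher and 3 lower in HIP than in PFC in unstressed males at an adjusted p under 0.05 (limma), with a median log2 fold change of 0.48 against 0.010 over all genes. Il16 (3.17 ± 0.29) and Glis3 (2.25 ± 0.24) were the 2 with the largest increase. Fam163b (-0.99 ± 0.27), Pdzd2 (-0.77 ± 0.11) and C1ql3, a relative of C1ql2 (-0.53 ± 0.18), were lower. Ahcyl2, the member of highest mean, was higher by 0.88 ± 0.065. Of the young neuron genes 3 of 7 tested were higher and 3 lower, of the CA1 genes 3 and 2 of 8, of the CA2 genes 2 and 0 of 4, and of the CA3 genes 1 and 1 of 3. Among interneuron genes 5 were higher and 2 lower of 10, among thalamus and habenula genes 1 and 1 of 6, among astrocyte genes 5 and 0 of 7, and among choroid plexus genes 13 and 0 of 14, while 0 of 10 myelin genes were called (0 at an unadjusted p under 0.05; not counted by another tool). Without the HIP libraries rich in Ttr, 10 of the 14 other granule cell genes were higher and 1 lower, with a median of 0.82, and 3 of 14 choroid plexus genes were higher and 1 lower. Interneuron genes were then 2 higher and 2 lower of 10, CA2 genes 1 and 1 of 4 and thalamus and habenula genes 1 and 2 of 6, and the counts of the young neuron, CA1, CA3, astrocyte and myelin lists did not change. The shares of all genes higher and lower in that reduced fit are not given, so the change in these counts has no background.

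The other regions of the series came from other groups, pooled here to describe levels. Females were reared under standard conditions or met ELS from postnatal day 10 to 20, were adult controls or met sub-threshold variable stress, and gave 6 standard controls, 5 ELS controls, 5 stressed after standard rearing and 6 after ELS in each region. Male NAc and VTA libraries each pooled 3 mice. Male NAc held 4 controls and 6 defeated libraries after standard rearing, 4 and 6 after ELS from postnatal day 10 to 20, and 4 and 5 after ELS from postnatal day 2 to 12. Male VTA, labelled C57BL/6, held 4 controls and 6 defeated libraries after each of standard rearing and ELS. C1ql2 reached 403 to 6613 normalised reads (median 2854) in the 22 libraries of the female ventral tegmental area (VTA) and 202 to 4912 (median 2821) in HIP, and the ranges overlapped. It was low in the nucleus accumbens (NAc) of females (median 32.3) and in PFC of males (median 17.0) and females (median 14.4). Prox1 had its next highest level in female VTA, at 1154 to 1654 (median 1352), above the 5 lowest HIP libraries and under the 18 with little Ttr. Its medians were 531 in female NAc, 389 in female PFC and 373 in male PFC, with overlapping ranges. Calb1 was higher in female NAc (median 6910.0) than in HIP (median 4663), and female VTA (3353) and PFC of both sexes (3596 each) overlapped one another.

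Dsp and Tdo2 were highest in HIP. Dsp had a median of 623 normalised reads there, 29.6 in female VTA, 7.90 in female NAc, 6.33 in male PFC and 5.21 in female PFC. Tdo2 had a median of 199 in HIP, 29.8 in male PFC, 29.4 in female PFC, 18.2 in female NAc and 17.9 in female VTA. The 4 lower regions overlapped one another for Tdo2. The male NAc, normalised in a table of its own, held medians of 498 for Prox1, 26.3 for C1ql2, 7.55 for Dsp, 9111 for Calb1 and 12.5 for Tdo2 over 29 libraries. For male VTA only RPKM values, scaled by gene length and library size, were used, with an unknown depth: over 20 libraries the medians were 48.6 RPKM for C1ql2, 19.2 for Calb1, 4.60 for Prox1, 0.177 for Tdo2 and 0.0829 for Dsp. Per length, C1ql2 was thus the highest of the 5 there. HIP was sampled in males alone, so region and sex cannot be told apart in the comparisons with female regions, and none of these was tested.

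**Figure D2:**
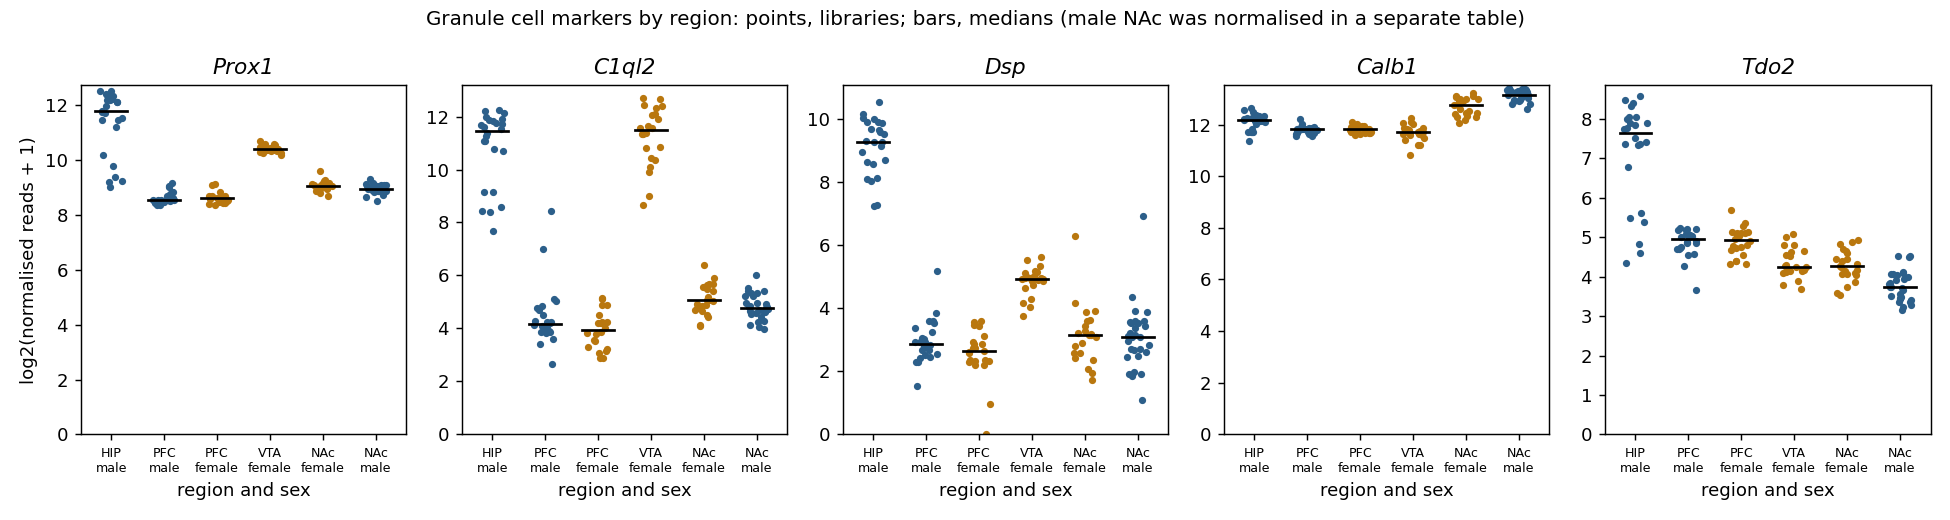
Log2(normalised reads + 1) of each marker in every library by region and sex, with bars at the medians; male libraries are blue and female ones orange. Dsp and Tdo2 are highest in HIP, C1ql2 has medians of 2854 normalised reads in female VTA and 2821 in HIP, and Calb1 is highest in NAc.

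Spread within groups was far larger for 4 markers in HIP than for most genes. The residual SD of log2 levels was 1.39 for C1ql2, 1.28 for Tdo2, 1.16 for Prox1 and 0.87 for Dsp, larger than in 99.1%, 98.9%, 98.7% and 97.5% of the 14000 genes tested, whose median was 0.16. For Calb1 it was 0.32, larger than in 81.8%. In the 18 libraries with little Ttr it was 0.63 for Dsp, 0.50 for C1ql2 and for Tdo2, 0.41 for Prox1 and 0.28 for Calb1, still larger than in 96.2%, 93.8%, 93.6%, 90.4% and 79.0% of genes. In male PFC it was 1.16 for C1ql2, 0.75 for Dsp, 0.35 for Tdo2, 0.21 for Prox1 and 0.15 for Calb1. The value for C1ql2 includes 346 normalised reads in standard defeat replicate 4 and 127 in ELS control replicate 6, against a PFC median of 17.0. That for Dsp includes 35.3 in ELS control replicate 6, against a median of 6.33.

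The 24 HIP libraries fall into 2 clusters in Prox1, C1ql2 and Tdo2, so no correlation over all of them is given. Over the 18 with little Ttr, with group means removed, 9 of the 10 pairs of markers were positively correlated at an adjusted p under 0.05 (permutation test of Pearson's r with 100000 resamples, two-sided, Benjamini-Hochberg over 10 pairs). The share of pairs of other genes that would pass in the same libraries is not given, here or for PFC below, so these counts have no background. Prox1 and C1ql2 were tightest, with r = 0.91 (adjusted p = 5e-05) and Spearman's rho = 0.88 (adjusted p = 5e-05), followed by Prox1 and Tdo2 with r = 0.87 and rho = 0.88 (adjusted p = 5e-05 for both). The permutation p behind these 2 values of r is 1e-05, the smallest that the resamples can give. C1ql2 and Tdo2 had r = 0.78 and rho = 0.79 (adjusted permutation p = 0.000167 and 0.000633).

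Dsp followed Tdo2 (r = 0.73, rho = 0.61, adjusted permutation p = 0.00202 and 0.0169) and Prox1 (r = 0.73, rho = 0.69, adjusted permutation p = 0.0014 and 0.00505), and C1ql2 less closely (r = 0.50, rho = 0.46, adjusted permutation p = 0.0374 and 0.067). Calb1 had r = 0.57 with Tdo2 (rho = 0.57), 0.56 with C1ql2 (rho = 0.59) and 0.51 with Prox1 (rho = 0.59), with adjusted permutation p-values of 0.0205, 0.0205 and 0.0374 for r and 0.0187, 0.0169 and 0.0169 for rho. Dsp and Calb1 were the 1 pair that did not pass (r = 0.27, rho = 0.14, adjusted permutation p = 0.27 and 0.567). Without the 2 libraries farthest from the median of the first gene, r was 0.87 for Prox1 and C1ql2, 0.78 for Prox1 and Tdo2, 0.75 for C1ql2 and Tdo2, 0.61 for Prox1 and Dsp, 0.70 for Dsp and Tdo2, 0.53 for C1ql2 and Dsp, 0.67 for Prox1 and Calb1, 0.46 for C1ql2 and Calb1, 0.42 for Calb1 and Tdo2 and 0.10 for Dsp and Calb1. The 6 libraries rich in Ttr come from groups of 3, 1 and 2, so the relation within them was not computed.

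In the 24 male PFC libraries the same 10 pairs gave r from -0.47 to 0.58, and 1 pair passed for r: Prox1 and C1ql2 (r = 0.58, rho = 0.53, adjusted permutation p = 0.0392 and 0.0921), with r = 0.41 without the 2 libraries farthest from the median of Prox1. Prox1 and Calb1, positively correlated in HIP, had r = -0.47 there (rho = -0.47, adjusted permutation p = 0.0758 and 0.116). The difference between the regions was not tested, and C1ql2 and Dsp are near the limit of counting in PFC.

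**Figure D3:**
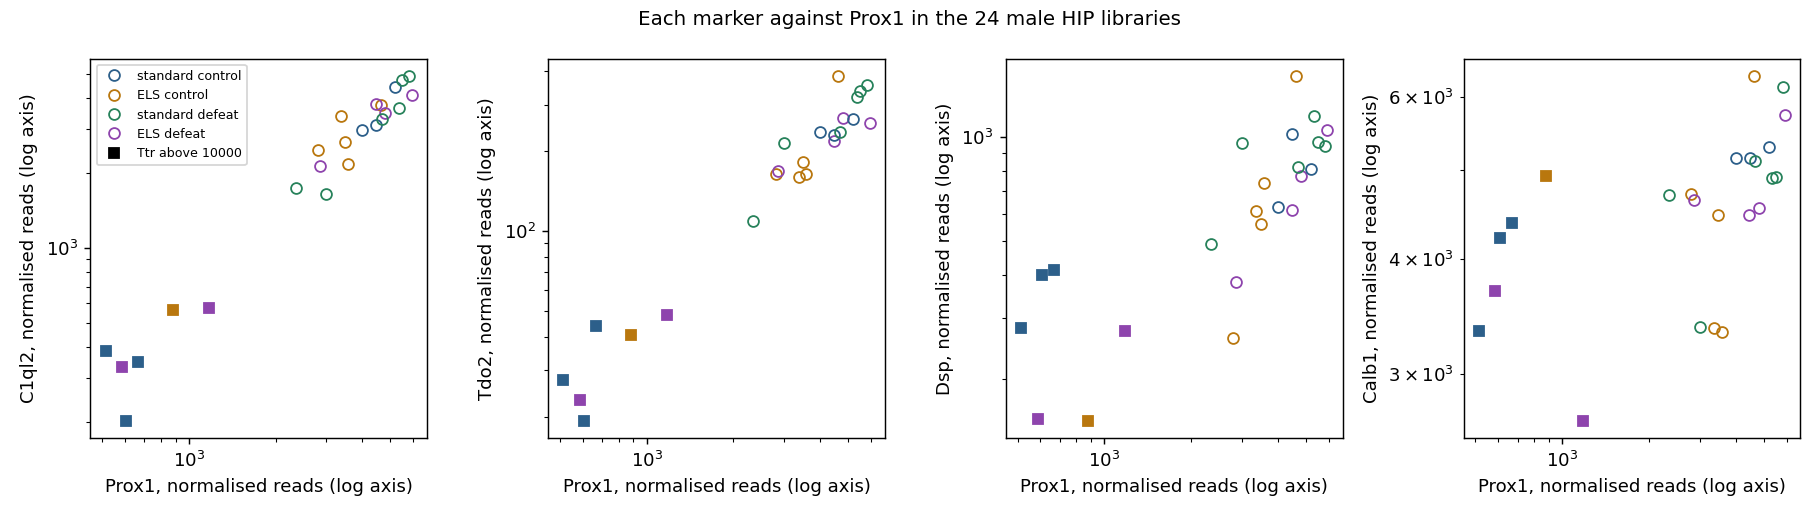
Normalised reads of C1ql2, Tdo2, Dsp and Calb1 against Prox1 in the 24 male HIP libraries (both axes log), coloured by group; filled squares are the 6 libraries with Ttr above 10000. C1ql2 and Tdo2 lie along 1 line with Prox1 within the 18 circles, Dsp and Calb1 less closely. For C1ql2 and Tdo2, r over these 18 was 0.91 and 0.87 in log2 levels with group means removed, which the plot does not remove.

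Genes most like the mean of the 5 markers over the 24 HIP libraries were Capn3, Susd1, Mcm6, Krt9, Synpr, Btbd3, Gm17566, Ccdc85a, Plekha2 and Trpc6, chosen by the highest Pearson's r of log2 levels with group means removed. Since the 24 fall into 2 clusters, their r is given over the 18 libraries with little Ttr, as a description: it was 0.94 for Mcm6 (a subunit of the replicative helicase), Krt9 (a keratin) and Plekha2, 0.92 for Capn3 (a calpain), 0.90 for Susd1, 0.89 for Ccdc85a, 0.87 for Gm17566, 0.86 for Btbd3, 0.85 for Synpr (synaptoporin, a vesicle protein of mossy fibres) and 0.79 for Trpc6. The 5 least like them were Ccdc108, Usp6nl, 4430402I18Rik, Ccdc19 and Lrrc48, with r from -0.91 (Usp6nl) to -0.58 (Ccdc19). Ranked over the 18 libraries instead, the order differed. Sema5a (0.96) and Dock10 (0.95) then came first, and Usp6nl, Rnf170 (-0.89) and Dph3 (-0.89) had the lowest r. All of these libraries share region, table and preparation.

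Each marker also had its own nearest genes by the same measure. For Prox1 they were Gm17566 (r = 0.89 over the 18 libraries), Capn3 (0.95) and Btbd3 (0.86), and for C1ql2 Gm17566 (0.92), Ntf3, a neurotrophin (0.89), and Btbd3 (0.91). Tdo2 had Il20rb (0.86), Cebpd (0.85) and Gm17566 (0.73). Dsp had Vwa3b (0.92), Plekha2 (0.89) and Slc26a10 (0.85), and Calb1 had Scn3a, a sodium channel (0.83), Gpr19 (0.82) and Nkain2 (0.76), so none of their 3 nearest genes was among those of Prox1. The 14 other granule cell genes had a median r of 0.74 with the mean of the markers over the 18 libraries, from 0.20 to 0.96, against -0.0032 over all genes. The medians were 0.41 for young neuron genes, 0.39 for astrocyte genes, 0.30 for CA2, 0.19 for thalamus and habenula, 0.11 for CA3 and for choroid plexus, -0.066 for interneuron genes, -0.073 for myelin genes, -0.19 for CA1 and -0.25 for cortical layer genes.

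Stress was then compared within HIP, 6 libraries against 6. No marker was called in any of the 5 comparisons (limma, adjusted p under 0.05), where 0% of the 14000 genes were, and edgeR and DESeq2 on recovered reads called 0 of the 5 in each as well. Several of these comparisons share a group, so their values are not independent. Defeat after standard rearing, standard defeat against standard control, gave the largest differences for C1ql2, Tdo2 and Prox1, while Dsp and Calb1 differed more between the 2 defeated groups (below). It was a log2 fold change of 1.58 ± 0.76 for C1ql2, 1.53 ± 0.70 for Tdo2, 1.36 ± 0.63 for Prox1, 0.68 ± 0.48 for Dsp and 0.078 ± 0.18 for Calb1. The adjusted p-values (limma) were 0.348, 0.333, 0.334, 0.504 and 0.855, and 2 markers, Tdo2 and Prox1, had an unadjusted p under 0.05, where 5.51% of genes did in that direction and 14.4% in either. The groups overlapped for all 5, while 0.214% of genes were higher in every standard defeat library than in every standard control. The exact two-sided permutation test gave p = 0.117 for C1ql2, 0.0779 for Tdo2, 0.106 for Prox1, 0.0736 for Dsp and 0.610 for Calb1, where the smallest possible is 0.00216. Of the standard defeat libraries 5 of 6 were above the standard control mean for Prox1, Tdo2, Dsp and Calb1, and 4 of 6 for C1ql2.

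The standard controls held 3 of the 6 libraries rich in Ttr and the standard defeat group 0. Without them (3 against 6), the same comparison gave -0.10 ± 0.27 for Prox1, -0.18 ± 0.33 for C1ql2, 0.0077 ± 0.33 for Tdo2, 0.10 ± 0.41 for Dsp and -0.12 ± 0.18 for Calb1 (limma). Of the 14 other granule cell genes 5 had an unadjusted p under 0.05 with all libraries, all higher after defeat, and the median log2 fold change was 0.43 against -0.010 over all genes. Choroid plexus genes moved the other way, with 11 of 14 lower at an unadjusted p under 0.05 and a median of -3.60. Of the CA1 genes 4 of 8 were lower and of the CA2 genes 1 of 4. Young neuron genes had 2 of 8 higher, cortical layer genes 2 of 7 higher, CA3 genes 1 of 4 higher, thalamus and habenula genes 1 of 6 higher, interneuron genes 2 of 10 lower, astrocyte genes 1 higher and 1 lower of 7, and myelin genes 0 of 10. Without the 3 standard controls rich in Ttr, 1 astrocyte gene was lower at an unadjusted p under 0.05 and 0 genes of any other list passed. The share of all genes that passed there is not given. The medians were then -0.0014 for the other granule cell genes, 0.21 for choroid plexus genes and -0.27 for CA1 genes against -0.011 over all genes.

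ELS alone, ELS control against standard control, gave log2 fold changes of 1.09 ± 0.76 for C1ql2, 0.85 ± 0.70 for Tdo2, 0.77 ± 0.63 for Prox1, -0.039 ± 0.18 for Calb1 and -0.11 ± 0.48 for Dsp, with unadjusted p from 0.166 to 0.825 (limma) and exact permutation p from 0.273 to 0.838. No marker had an unadjusted p under 0.05, where 6.46% of genes did. Without the libraries rich in Ttr (5 against 3) all 5 lay between -0.27 (Calb1) and -0.36 (Prox1), so the direction turned for Prox1, C1ql2 and Tdo2. The exact permutation p there ran from 0.107 for Prox1 to 0.536 for Dsp.

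Defeat after ELS, ELS defeat against ELS control, gave values from -0.37 ± 0.76 (C1ql2) to -0.077 ± 0.18 (Calb1) with unadjusted p from 0.622 to 0.809 (limma). Here 7.88% of genes had an unadjusted p under 0.05. Without the 1 and 2 libraries rich in Ttr all 5 lay above 0, from 0.066 ± 0.39 (Dsp) to 0.31 ± 0.26 (Prox1). Between the 2 defeated groups, ELS defeat against standard defeat, Tdo2 differed by -1.03 ± 0.70, Dsp by -0.94 ± 0.48, C1ql2 by -0.86 ± 0.76, Prox1 by -0.75 ± 0.63 and Calb1 by -0.19 ± 0.18. The smallest p of that comparison was that of Dsp (p = 0.0618 by limma, 0.0671 by exact permutation), and 2.89% of genes were under 0.05. Dsp was the marker with the largest remaining difference without libraries rich in Ttr, at -0.38 ± 0.37. The exact permutation p there was 0.295.

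ELS plus defeat against unstressed males gave 0.72 ± 0.76 for C1ql2, 0.61 ± 0.63 for Prox1, 0.50 ± 0.70 for Tdo2, -0.12 ± 0.18 for Calb1 and -0.26 ± 0.48 for Dsp, and 3.41% of genes had an unadjusted p under 0.05 but no marker. Without libraries rich in Ttr the 5 lay between -0.28 (Dsp) and -0.054 (Prox1). Of the 25 exact permutation tests of 5 markers in 5 comparisons, 0 gave a p under 0.05 with all libraries, and 0 without those rich in Ttr.

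**Figure D4:**
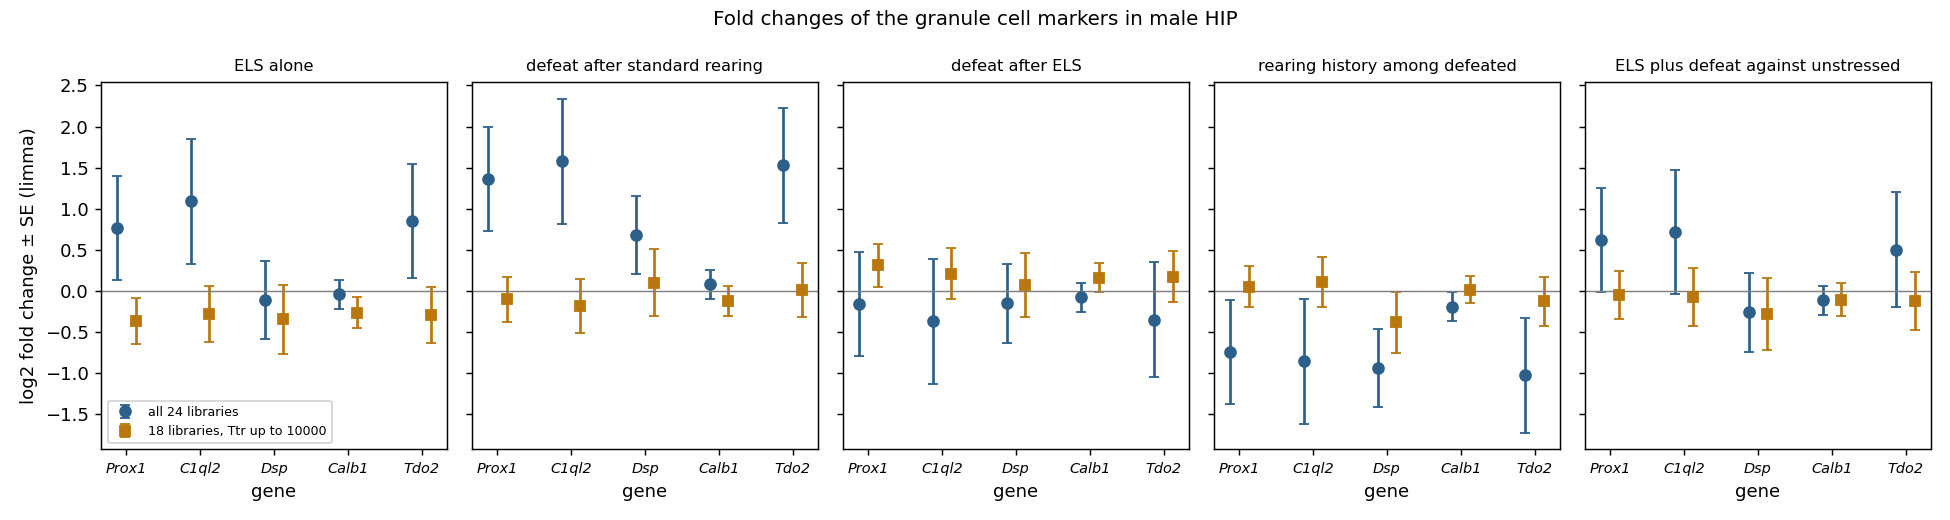
Log2 fold change ± SE (limma) of each marker in the 5 comparisons within male HIP, with all 24 libraries (circles) and with the 18 with Ttr up to 10000 (squares). The circles for Prox1, C1ql2 and Tdo2 in defeat after standard rearing lie between 1.36 and 1.58, and the squares between -0.18 and 0.0077.

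Whether defeat acted differently after ELS than after standard rearing was tested as an interaction. It was -1.95 ± 1.08 for C1ql2, -1.88 ± 0.99 for Tdo2, -1.52 ± 0.90 for Prox1, -0.83 ± 0.68 for Dsp and -0.15 ± 0.25 for Calb1, with unadjusted p of 0.0837, 0.0702, 0.104, 0.233 and 0.541 and adjusted p from 0.455 to 0.833 (limma). No marker had an unadjusted p under 0.05, where 11.8% of genes did, and 0% of genes were called. Without libraries rich in Ttr it was 0.41 ± 0.37 for Prox1, 0.39 ± 0.45 for C1ql2, 0.17 ± 0.45 for Tdo2, 0.28 ± 0.25 for Calb1 and -0.034 ± 0.56 for Dsp. The difference between HIP and PFC in the effect of defeat after standard rearing was 1.58 ± 0.74 for Tdo2, 1.37 ± 0.66 for Prox1, 0.76 ± 0.65 for Dsp, 0.61 ± 1.01 for C1ql2 and 0.12 ± 0.20 for Calb1. Their adjusted p-values ran from 0.374 to 0.826 (limma), and 2 markers, Tdo2 and Prox1, had an unadjusted p under 0.05, where 12.7% of genes did. No marker was called in that or in the other 4 such differences, where 0% of genes were. Without libraries rich in Ttr it was 0.059 ± 0.37 for Tdo2, -0.097 ± 0.28 for Prox1, 0.18 ± 0.62 for Dsp, -1.15 ± 0.83 for C1ql2 and -0.079 ± 0.19 for Calb1, none of them called.

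In male PFC itself, Prox1 and Calb1 were the 2 markers among the 14000 genes of highest mean. Prox1 medians were 371 in standard controls, 380.2 in ELS controls, 422 in standard defeat and 370.4 in ELS defeat libraries, and those of Calb1 were 3699, 3610.3, 3418 and 3609. Log2 fold changes over the 5 comparisons ran from -0.15 ± 0.11 to -0.0063 ± 0.11 for Prox1 and from -0.040 ± 0.080 to 0.11 ± 0.080 for Calb1, and none was called (lowest adjusted p 0.644, limma), where 0% of genes were. C1ql2, Dsp and Tdo2 were under the minimum there. Dsp ran from 1.87 to 35.3 and C1ql2 from 5.24 to 346 normalised reads over the 24 libraries, and the highest C1ql2 was that of standard defeat replicate 4, the library with 3853 normalised reads of Slc6a3.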

How the data were processed

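Poly-A RNA of male HIP and PFC was sequenced with an unstranded TruSeq kit, per the labels' protocols. For these and the female libraries, and in a second table for male NAc, the authors deposited a signal of gene counts divided by 1 factor per library. The submitters' processing notes name HISAT, HTSeq and mm10 without versions, while how the factors were made is not stated there. RPKM values are what the authors deposited for male VTA. Tables were normalised separately, and tests stayed within 1 table. Dividing by what 1 read is worth gave whole reads for 100.0% of the normalised values (tolerance 0.001), and so the depth of each library.

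Groups came from the titles and characteristics. The 120 pairs of libraries of 1 group in HIP and male PFC all differed by more than sampling noise (lowest chi-square per gene 3.24, median 18.7), so none was merged. Values were fitted as log2(value + 1) in R 4.3.3 by limma 3.58.1 (robust, with a mean trend, 1 coefficient per group) over the 14000 genes of highest mean in the libraries fitted, with Benjamini-Hochberg adjustment over them and a threshold of 0.05. The scale understates changes of low genes. Alternatives were other filters, pseudocounts of 0.1 and 10, quantile normalisation, edgeR 4.0.16 and DESeq2 1.42.0 on the recovered reads, the replicate number as a block, the compared groups alone, each library left out, log2(Ttr + 1) as a covariate, and leaving out libraries with Ttr above 10000 or, in PFC, Xist above 200. The list counts and region differences without libraries rich in Ttr were added after seeing the data. Permutations and correlations used scipy 1.17.1, figures matplotlib 3.10.9. The limma fit was first tested on simulated data.

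The 5 markers, the 11 other lists and the Ttr limit were chosen with earlier results of these data known. All 5 markers are named in every comparison, plus the genes most and least like their mean, and from the lists examples of high mean or, chosen after their values were seen, those that differed most. Of the lists, Nectin3 and Lamp5 were not found by symbol. Replicate numbers recur across groups, and the main fits did not take them as pairs.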

Additional observations from a re-analysis of the deposited data

Results flagged for a closer look

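In 40 groups of 6 libraries (5 markers, 4 groups, HIP and male PFC) the gap of the highest or lowest library to the next, divided by the range, passed Dixon's 95% limit for 6 values in 5 cases, all in PFC. Chance flags about 1 in 20 groups. PFC ELS control replicate 6 gave 3 of them: it held 35.3 normalised reads of Dsp against 7.33 in the next library (0.837 of the range), 127 of C1ql2 against 24.98 (0.882) and 532 of Prox1 against 402 (0.733). The same library held the most Fibcd1, a CA1 gene, of the 24 PFC libraries, 448 against at most 279 in the others. C1ql2 in replicate 4 of PFC standard defeat was at 346 against 32.0 in the next (0.952), together with 3853 of Slc6a3 and 2086 of Th, against at most 121 and 168 in the other 23. That library, labelled male, also held 1284 of Xist, against at most 559.5 in the other 23. PFC ELS defeat replicate 2 held 4741 of Calb1 against 3681 (0.719), and the most Ptgds of the 24, 24806 against at most 14903. Whether tissue of another region, or material of another sample, had a part in these values was not tested.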

How the results depend on the processing

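No marker in any HIP stress comparison was called under any of the alternatives (lowest adjusted p 0.191, for Prox1 after defeat without standard control replicate 2, limma), so what varied was direction. Without libraries with Ttr above 10000 the log2 fold change turned for ELS alone in Prox1 (-0.36), C1ql2 (-0.28) and Tdo2 (-0.30), for defeat after standard rearing in Prox1 (-0.10), C1ql2 (-0.18) and Calb1 (-0.12), for defeat after ELS in all 5 (Prox1 0.31, C1ql2 0.21, Dsp 0.066, Calb1 0.16, Tdo2 0.17), between the defeated groups in Prox1 (0.049), C1ql2 (0.11) and Calb1 (0.012), for ELS plus defeat in Prox1 (-0.054), C1ql2 (-0.074) and Tdo2 (-0.12), and for the interaction in Prox1 (0.41), C1ql2 (0.39), Calb1 (0.28) and Tdo2 (0.17). With log2(Ttr + 1) as a covariate it turned for defeat after standard rearing in Calb1 (-0.12), for defeat after ELS in Prox1 (0.30), C1ql2 (0.18), Dsp (0.090) and Tdo2 (0.14), between the defeated groups in Prox1 (0.27), C1ql2 (0.39) and Tdo2 (0.058), and for the interaction in Prox1 (0.20), C1ql2 (0.15), Dsp (0.082) and Calb1 (0.11). With edgeR and DESeq2 it turned for Dsp in ELS alone (0.12 and 0.12) and for Prox1 in defeat after ELS (0.078 and 0.081). The cause was not tested.

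Leaving out 1 library gave, for defeat after ELS, -0.49 to 0.26 for Prox1, -0.76 to 0.094 for C1ql2, -0.49 to 0.17 for Dsp, -0.17 to 0.052 for Calb1 and -0.73 to 0.11 for Tdo2. It gave -0.43 to 0.23 for Dsp and -0.14 to 0.041 for Calb1 in ELS alone, -0.0099 to 0.18 for Calb1 in defeat after standard rearing, and -0.51 to 0.045 for Dsp and -0.21 to 0.013 for Calb1 in ELS plus defeat.

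Over all genes, DESeq2 called 5 in ELS alone, 162 in defeat after standard rearing, 4 in defeat after ELS, 10 between the defeated groups and 212 in the interaction in HIP, where limma and edgeR called 0, and 76, 4 and 16 in PFC for defeat after ELS, between the defeated groups and for ELS plus defeat. At an unadjusted p under 0.05 limma had 904, 2011, 1103, 404 and 1649 genes in those HIP comparisons. With the compared groups alone, limma called 2 genes in PFC for ELS plus defeat. Leaving out 1 library moved the PFC count for defeat after ELS from 0 to 35 (ELS control replicate 1) and for ELS plus defeat from 0 to 1 (standard control replicate 3). It moved the markers called in HIP against PFC, unstressed, between 3 and 5. There, Calb1 missed the threshold with no filter (adjusted p = 0.0502) and Tdo2 with the compared groups alone (adjusted p = 0.0731).

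The main fits did not take replicate numbers as pairs, and these values do not settle whether they pair samples. Of same-numbered pairs, 15 of 36 in HIP and 14 of 36 in PFC correlated above 0.1. Of these 36 and 36, 9 and 9 correlated best with their own number, among the 6 libraries of the other group. With the replicate number as a block, the markers called stayed at 0 of 5 in HIP stress comparisons and 5 of 5 between regions, and the log2 fold change of Prox1 after defeat was 1.36 ± 0.64. Correlations are over libraries with Ttr up to 10000, so leaving out the others changes nothing there, and 9 of 10 pairs also passed with a pseudocount of 10. The alternative without PFC libraries rich in Xist was, for contrasts of both regions, chosen after seeing the data, and left 5 of 5 called. In PFC, Dsp and C1ql2 rest on few reads, which limits their precision.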
